A study of Homo sapiens with 3 samples.

Results

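The transcripts described here come from 5 genes: the polypyrimidine tract-binding (PTB) family members PTBP1, PTBP2 and PTBP3, and the raver genes RAVER1 and RAVER2. They were chosen by gene name, and every cluster that the deposited tables assign to one of them was taken, 109 of 115227 clusters in all. The study mapped RNA contacts of MATR3 (matrin 3, a nuclear RNA-binding protein) by PAR-CLIP, in which a photoreactive uridine analogue is read as C where it was crosslinked, so contact sites carry T-to-C changes. All 3 libraries were made from HAP1, a near-haploid cell line derived from the chronic myeloid leukaemia line KBM-7: 2 replicates of wild-type (WT) cells and 1 library of a purchased MATR3 knockout (KO) line, which serves as the negative control and for which the labels give 1 catalogue item. The labels give 1 protocol for every library, with UV crosslinking, RNase T1 digestion and recovery on anti-FLAG beads, and the labels record no FLAG tag on MATR3 in either genotype. A cluster is a stretch of overlapping reads that the authors called in one library. Replicate 1 held 87230 clusters, replicate 2 held 27155 and KO held 842, and 81, 27 and 1 of these lay in the 5 genes. The clusters held 2668797, 1558995 and 224142 reads, with a median of 20, 39 and 243 reads per cluster. Because KO was measured once, the genotypes are set side by side without a test; clusters of one gene are not replicates, and the labels call the WT libraries independent without naming separate cultures, so the spread between them may be technical. Below, replicate 1 and replicate 2 are the WT libraries. Cluster tables do not measure expression, so the cell line was not checked against marker genes.

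PTB proteins bind pyrimidine-rich RNA through several RNA recognition motifs and mostly repress the splicing of nearby exons. PTBP1 is the widely expressed member, PTBP2 is the form abundant in neurons, and PTBP3 (once called ROD1) was first described in blood-forming cells. The family controls itself at the RNA level: PTBP1 represses an exon of the PTBP2 transcript, and skipping of that exon sends the PTBP2 mRNA to decay. Raver proteins are co-repressors that dock on PTBP1 through short peptide motifs, and MATR3 carries a motif of the same kind, which makes these genes partners and paralogues of partners of MATR3 in splicing.

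The sites found in both WT libraries are shown first, because they are the positions that recurred between those libraries. All of them lay in introns of PTBP2, on the plus strand of chromosome 1. Each line gives the cluster as deposited, 5′ to 3′, with the bases covered in both WT libraries in capitals. Positions are on GRCh38.
PTBP2 site 1, replicate 1, chr1:96780214-96780247: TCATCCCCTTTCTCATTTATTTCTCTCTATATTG
PTBP2 site 1, replicate 2, chr1:96780199-96780247: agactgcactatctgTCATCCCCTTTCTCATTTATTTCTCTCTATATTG
PTBP2 site 2, replicate 1, chr1:96780356-96780385: CCTCCCCTCTCCCTTTTCACTCATAACCag
PTBP2 site 2, replicate 2, chr1:96780350-96780383: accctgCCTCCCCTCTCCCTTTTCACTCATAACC
PTBP2 site 3, replicate 1, chr1:96781257-96781287: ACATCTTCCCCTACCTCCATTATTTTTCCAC
PTBP2 site 3, replicate 2, chr1:96781257-96781288: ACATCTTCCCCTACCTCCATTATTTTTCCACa
PTBP2 site 4, replicate 1, chr1:96728535-96728571: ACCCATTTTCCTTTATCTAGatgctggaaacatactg
PTBP2 site 4, replicate 2, chr1:96728535-96728554: ACCCATTTTCCTTTATCTAG
PTBP2 site 5, replicate 1, chr1:96781317-96781347: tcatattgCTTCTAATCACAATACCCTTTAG
PTBP2 site 5, replicate 2, chr1:96781325-96781347: CTTCTAATCACAATACCCTTTAG

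The shared stretches are runs of C and T broken mainly by A, with at most 1 G in each, and 4 of the 5 sites end in G, the base after which RNase T1 cuts, in replicate 1 and 3 of 5 in replicate 2, against 73.5% and 94.4% of all clusters. Site 2 holds the longest unbroken pyrimidine run, 18 bases. Sites 1, 2, 3 and 5 lie within 1.15 kb of each other.

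PTBP2 carried the most clusters of the 5 genes in every library. Replicate 1 had 38 clusters with 1410 reads in PTBP2, replicate 2 had 17 with 1227 reads, and KO had 1 with 277 reads. The WT libraries thus differed in the number of clusters but gave similar unscaled read sums, with a mean of 1318.5 ± 129.4 reads (SD, n = 2). These reads came from 172 distinct sequences in replicate 1 and 70 in replicate 2, so the sums are not read as agreement. Over all clusters the libraries had 7.58 and 17.9 reads per distinct sequence. As a share of each library, PTBP2 held 528 reads per 1000000 cluster reads in replicate 1 and 787 in replicate 2. The KO cluster alone came to 1236 on this scale, in a library with few clusters, where the 5 genes together had 961 and 1094 in the WT libraries. PTBP2 ranked 302 by number of clusters among the 9189 genes of replicate 1 and 165 among the 6043 genes of replicate 2. The gene spans 102 kb (chr1:96721784-96823739 in RefSeq), so its density was 3.73 and 1.67 clusters per 10 kb, at percentile 89.6 and 91.5 of the protein-coding genes with a cluster in that library.

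PTBP3 came next, and its share of reads had the smallest ratio between the replicates. It had 23 clusters with 598 reads in replicate 1 and 6 clusters with 315 reads in replicate 2, and none in KO. Its share was 224 and 202 reads per 1000000 cluster reads, a mean of 213 ± 15.6 (SD, n = 2). The gene is the longest of the group, at 162 kb on the minus strand of chromosome 9 (chr9:112217715-112379882), and its density of 1.42 and 0.370 clusters per 10 kb lay at percentile 61.7 and 43.8.

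Among the members found in both WT libraries, PTBP1 had the largest ratio between them. Replicate 1 had 13 clusters with 433 reads, whereas replicate 2 had a single cluster with 5 reads, the lowest number the tables list. KO had none. The replicates have 162 and 3.21 reads per 1000000 cluster reads, so the WT spread (82.7 ± 112, SD, n = 2) is larger than the mean. At the ratio of the libraries' cluster numbers, 3.21 to 1, the 13 clusters of replicate 1 would correspond to 4.05 in replicate 2. PTBP1 is a short gene, 14.9 kb on chromosome 19 (chr19:797452-812312), and its 8.75 clusters per 10 kb in replicate 1 stood at percentile 98.5 of protein-coding genes with a cluster. In replicate 2 the density was 0.673 per 10 kb, at percentile 67.0. That percentile rests on 1 cluster, the fewest a ranked gene can have and the number in 2167 genes of replicate 2. Density depends on gene length, so it is not read as a high count.

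The raver genes carried fewer clusters than PTBP2 and PTBP3. The median gene with a cluster had 4 in replicate 1 and 2 in replicate 2. RAVER2, 88.2 kb on chromosome 1 (chr1:64745075-64833232), had 5 clusters with 93 reads in replicate 1 and 3 with 159 reads in replicate 2. RAVER1, 17.3 kb on chromosome 19 (chr19:10316212-10333529), had 2 clusters with 31 reads in replicate 1 and none in replicate 2. Neither had a KO cluster. The density of RAVER2 was 0.567 and 0.340 clusters per 10 kb, at percentile 30.5 and 40.7. RAVER1 had 1.15 per 10 kb in replicate 1, at percentile 54.6. By WT mean of reads per 1000000, which takes no account of gene length, the order was PTBP2, PTBP3, PTBP1, RAVER2 and RAVER1. The WT values of PTBP2 and PTBP3 overlapped neither each other nor those of any other member. The PTBP1 values, 162 and 3.21, spanned those of RAVER2 (34.8 and 102, mean 68.4 ± 47.5 SD, n = 2) and part of those of RAVER1 (11.6 and 0), so PTBP1 did not differ beyond its spread from either raver gene. The RAVER2 and RAVER1 values did not overlap.

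**Figure D1:**
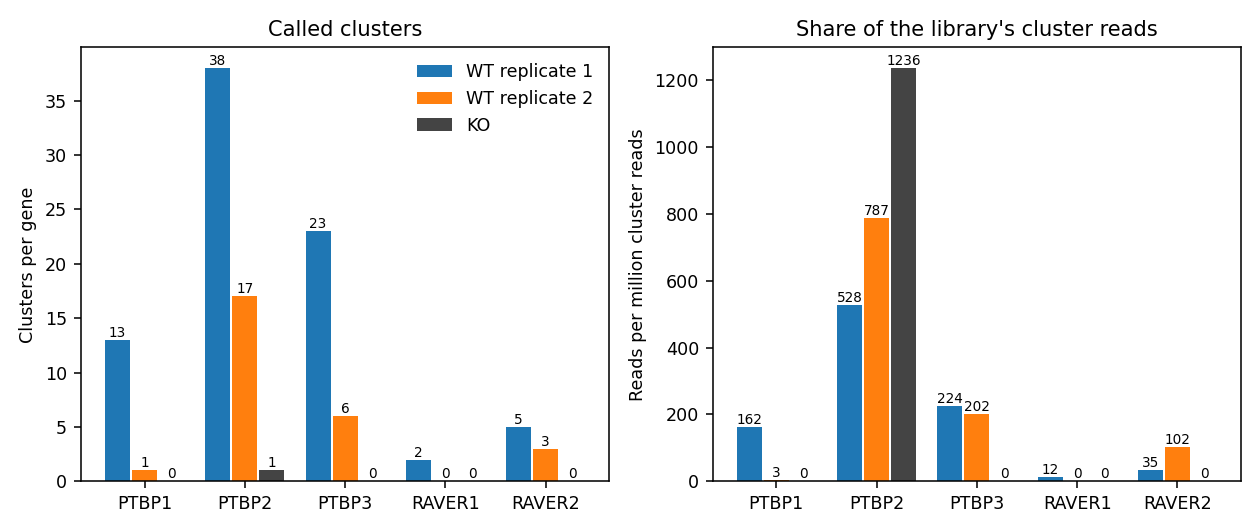
Clusters per gene (left) and reads per 1000000 cluster reads (right) for the 5 genes in each of the 3 libraries; each bar is 1 library and the number above it is its value. PTBP2 is highest in every library, and PTBP1 is at 13 clusters in replicate 1 and 1 in replicate 2.

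In the KO library the single PTBP2 cluster made up 0.119% of its 842 clusters (95% Wilson interval 0.0210 to 0.670%). The 5 genes together held 0.0929% of the clusters of replicate 1 and 0.0994% of replicate 2. A library of KO size would hold 0.782 or 0.837 clusters of these genes at the WT shares, so no difference in share between WT and KO was detectable at this depth. The KO cluster overlapped no WT cluster. It lay 564 nt from the nearest PTBP2 cluster of replicate 2 and 2291 nt from that of replicate 1. It is printed below with a PTBP2 cluster of replicate 1, and the longest word it shares with any WT cluster of the 5 genes, 10 bases, is in capitals.
PTBP2, KO, chr1:96744099-96744127: aaaaattgcttgaacctgGGGAGGCTGAg
PTBP2, replicate 1, chr1:96746588-96746620: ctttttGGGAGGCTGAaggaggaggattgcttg
C and T made up 34.5% of the KO cluster and G another 34.5%, and its longest pyrimidine run was 3 bases. So low a pyrimidine content was rare in WT. At or under 40% pyrimidine were 3 of 38 PTBP2 clusters in replicate 1 and 0 of 17 in replicate 2. The one at chr1:96775175-96775206, chosen after its values were seen, had 31.25% pyrimidine and a longest run of 2 bases, but 15.6% G. Of all KO clusters, 28.1% were under 50% pyrimidine. Its 277 reads came from 5 distinct read sequences, and 98.6% of them carried a T-to-C change. The WT cluster with the shared word had 21 reads from 2 distinct sequences and was also low in pyrimidines, at 39.4%, with 42.4% G. The shared word occurred in 6 clusters of replicate 1, 2 of replicate 2 and 1 of KO over the whole series. Whether these 2 sequences occur elsewhere in the genome was not tested.

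Nearly all clusters of the 5 genes were intronic. Introns held 74 of 81 clusters in replicate 1 (91.4%, 95% Wilson interval 83.2 to 95.8%) and 25 of 27 in replicate 2 (92.6%, 76.6 to 97.9%), a mean of 92.0 ± 0.873% (SD, n = 2). Over all clusters of those libraries the share was 84.1% and 83.1%, values that lie inside the members' interval in each case. These library shares, and the 3′ UTR shares that follow, also count clusters assigned to no gene, which no member cluster is. The libraries held 73317 and 22569 intronic clusters among 79793 and 24982 clusters assigned to a gene, so the members' intronic share is not read as an excess. The 3′ UTR held 6 clusters in replicate 1 and 2 in replicate 2, or 7.41% in each, against 2.94% and 4.16% of all clusters; the interval of replicate 1, 3.44 to 15.2%, lies above the library's value and that of replicate 2, 2.06 to 23.4%, includes it. PTBP1 had 1 in each WT library, PTBP3 had 1 in each, PTBP2 had 3 and RAVER1 had 1 in replicate 1. Those of PTBP2 had 10, 39 and 9 reads. The PTBP3 clusters there had 41 reads in replicate 1 and 71 in replicate 2. The RAVER1 cluster had 22 reads, of which 31.8% carried a T-to-C change. Of these 8 clusters, 4 hold the word TCTT, which occurs in 57.5% and 59.5% of all clusters of replicate 1 and replicate 2. A single PTBP1 cluster was annotated as spanning coding sequence and intron. The class does not name the intron, and exon positions were not used here, so distances to the regulated exons are not given.

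Within PTBP2 the clusters were concentrated. The 2.5 kb window with the most WT clusters, found by sliding a window along the gene, held 10 clusters of replicate 1 and 9 of replicate 2, all intronic (chr1:96779927-96782325). It covers 2.45% of the gene. It held 26.3% of the PTBP2 clusters and 52.1% of the PTBP2 reads in replicate 1, and 52.9% of the clusters and 75.5% of the reads in replicate 2. The window was picked for its count, so this is a description. Of 9706 genes with a WT cluster, 40 had a window at least as full. The KO cluster lay outside it, 22.3 kb from the 5′ end of the gene against 58.1 to 60.5 kb for the window.

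Of the 5 shared sites, 4 lie inside this stretch. Site 1 had 180 reads in replicate 1 and 497 in replicate 2, the most reads of any cluster in the 5 genes, with T-to-C changes at 8 and 10 positions. Site 2 had 32 and 222 reads, and site 3 had 80 and 76. Site 5 was weak in both, at 28 and 11 reads. Site 4 lies 6.75 kb from the gene's 5′ end, with 65 and 47 reads, and its T-to-C share was 73.8% of reads in replicate 1 and 100% in replicate 2. Sites 1 and 2 supplied 58.6% of the PTBP2 reads of replicate 2, 719 of 1227, and 212 of 1410 in replicate 1. In replicate 1 the strongest PTBP2 cluster, with 221 reads, 22 distinct sequences and 11 converted positions, was also in the stretch but overlapped no cluster of replicate 2. It is printed here with each match to the words TCTT and TCTCT in capitals.
PTBP2, replicate 1, chr1:96781524-96781564: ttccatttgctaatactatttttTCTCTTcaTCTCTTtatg
Outside the stretch replicate 1 had 28 PTBP2 clusters with 676 reads, spread from 6.62 to 97.5 kb from the gene's 5′ end, and replicate 2 had 8 with 301 reads. Only site 4 was found in both libraries there.

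**Figure D2:**
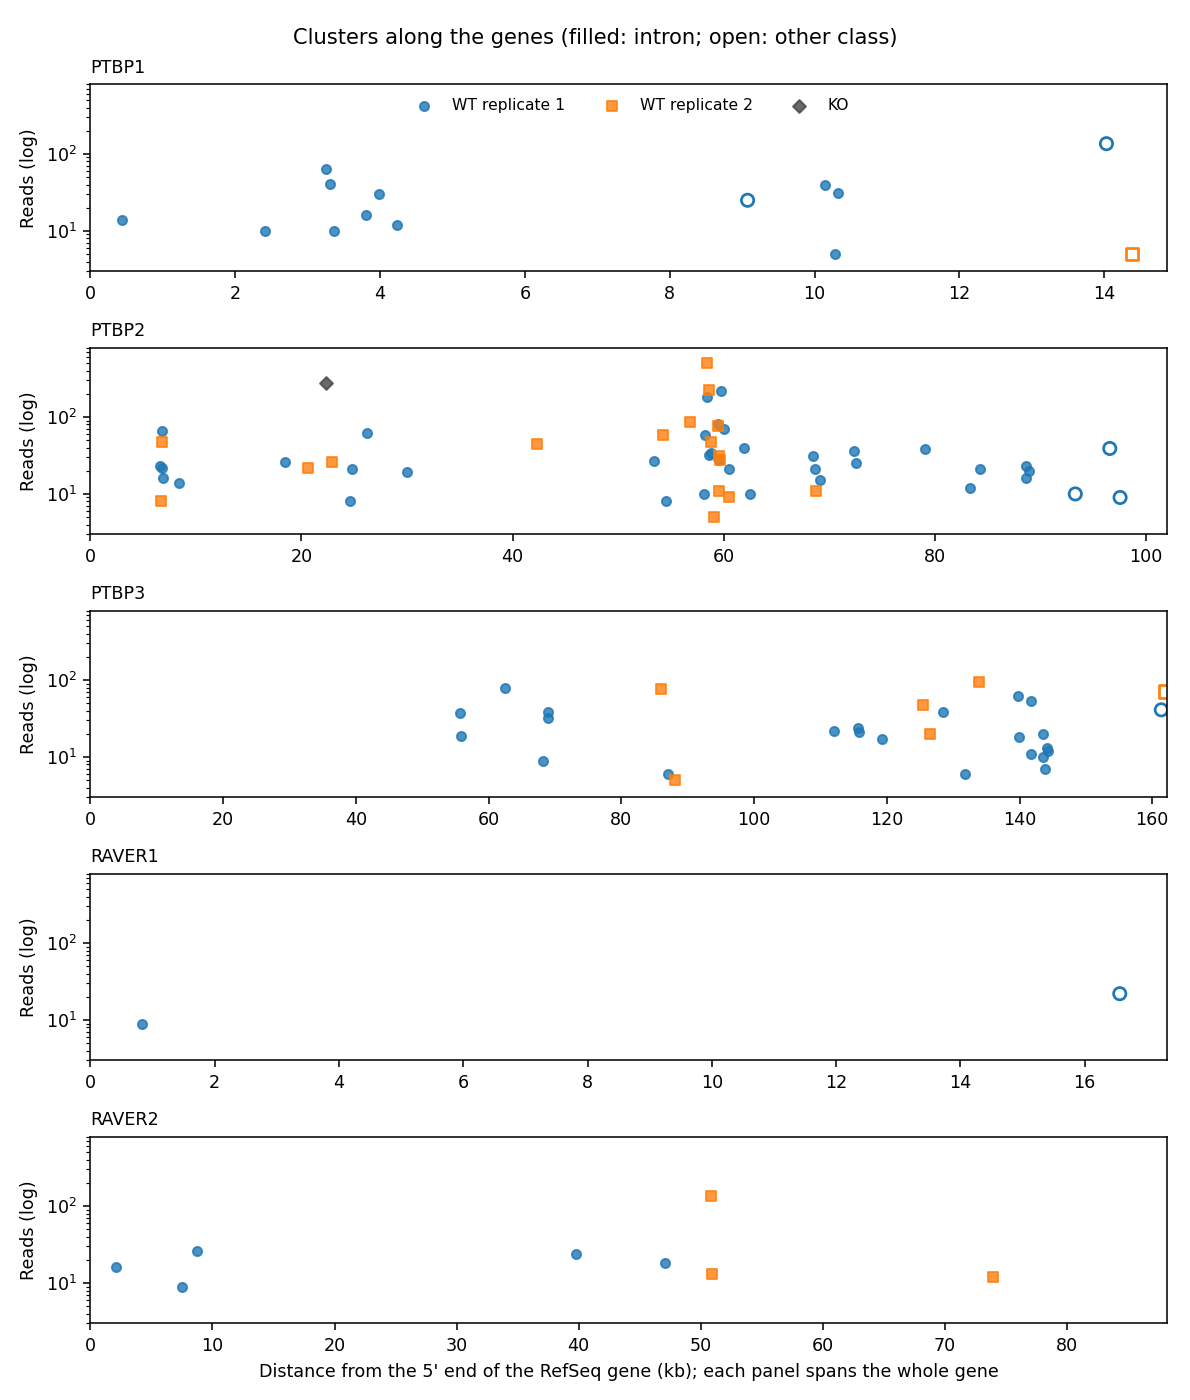
Position of each cluster of the 5 genes (x axis, kb from the 5′ end of the RefSeq gene, each panel spanning the gene) against its reads (y axis, log scale); filled symbols are intronic clusters, open symbols other classes, and colours and shapes are the 3 libraries. PTBP2 clusters of both WT libraries pile up near 58.1 to 60.5 kb, whereas those of PTBP1, PTBP3 and RAVER2 from the WT libraries lie at different positions.

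**Figure D3:**
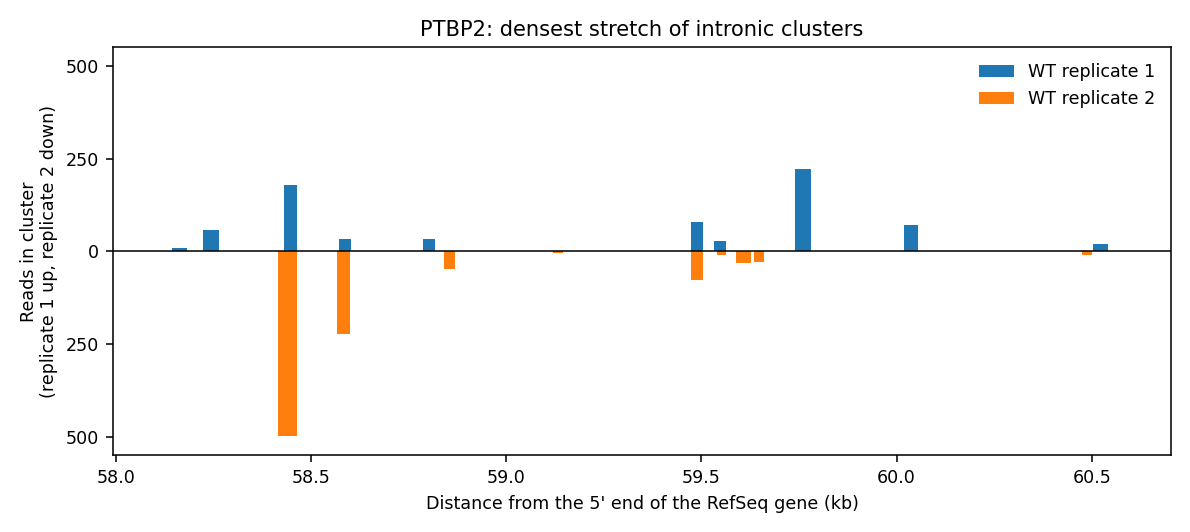
Clusters in the densest stretch of PTBP2, drawn to scale by distance from the gene's 5′ end (x axis, kb) with reads of replicate 1 upward and replicate 2 downward. The tallest bars of replicate 2, at 497 and 222 reads, face clusters of 180 and 32 reads in replicate 1, and the 221-read cluster of replicate 1 has no bar opposite.

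Agreement between the WT libraries was measured by gene and by position. By gene, 4 of the 5 members had a cluster in both WT libraries, all but RAVER1, where 56.9% of the 9706 genes with a WT cluster did. For PTBP1 this rests on the 5-read cluster of replicate 2. By position, 5 of the 27 clusters of replicate 2 overlapped a replicate 1 cluster, or 18.5% (95% Wilson interval 8.18 to 36.7%), against 19.5% of all its clusters. In the other direction 5 of 81 overlapped, or 6.17% (2.67 to 13.6%), against 6.00%. Both intervals include the share of the whole library. Every overlap was in PTBP2, where 5 of 17 clusters of replicate 2 were shared (29.4%, 13.3 to 53.1%), an interval that includes 19.5%. Moving the replicate 1 clusters by 500, 1000 and 2000 nt either way gave a mean of 6.17% and a highest value of 14.8% for the 27 clusters. The shared clusters had a median of 65 reads in replicate 1 and 76 in replicate 2, and the remaining ones 21 and 27. Within 100 nt of a replicate 1 cluster, a distance chosen after the overlaps were seen, lay 11 of the 27 clusters of replicate 2 (40.7%, against 34.3% of all its clusters), again all in PTBP2.

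PTBP3 had no position in common between the WT libraries. Its clusters lay between 55.8 kb and 162 kb from the gene's 5′ end, and the closest clusters of the WT libraries were those in the 3′ UTR, 493 nt apart. The strongest cluster of each library and the one richest in pyrimidines, the last chosen after its value was seen, are printed in the sense of the RNA, which is the minus strand, with matches to ATCTT, TCTT and TCTCT in capitals.
PTBP3, replicate 1, 80 reads, chr9:112317441-112317468: ctttatttcctTCTTtctatttacattg
PTBP3, replicate 2, 94 reads, chr9:112245893-112245926: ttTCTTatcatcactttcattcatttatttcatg
PTBP3, replicate 1, 17 reads, chr9:112260626-112260660: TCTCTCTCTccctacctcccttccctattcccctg
The last of these is 91.4% pyrimidine. The 80-read cluster has 82.1% and the 94-read cluster 76.5%.

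PTBP1 clusters were of another composition. Over the 13 clusters of replicate 1, C and T made up 55.6% of the bases and G 27.5%, against 68.0% and 10.1% over all clusters of that library. The 11 intronic ones had a median pyrimidine content of 57.6% (35.5 to 65.8%), below the 68.6% median of all intronic clusters of the library, and 7 of them lay within 1861 nt near the 5′ end of the gene (chr19:799857-801717). The 3 clusters with the most reads in that stretch, chosen after their values were seen, and the cluster spanning coding sequence and intron are printed with the same words in capitals.
PTBP1, replicate 1, 64 reads, chr19:800700-800734: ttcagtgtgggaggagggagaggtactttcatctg
PTBP1, replicate 1, 41 reads, chr19:800758-800805: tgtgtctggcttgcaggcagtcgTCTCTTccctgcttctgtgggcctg
PTBP1, replicate 1, 30 reads, chr19:801442-801472: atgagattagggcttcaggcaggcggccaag
PTBP1, replicate 1, 25 reads, chr19:806527-806558: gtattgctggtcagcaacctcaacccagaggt
The 64-read cluster is 40% pyrimidine and the 30-read cluster 35.5%, and both contain runs of G. T-to-C changes were nonetheless carried by 95.3% and 80% of their reads. Since none of the 13 positions recurred in replicate 2, these clusters have no replicate check. The 3′ UTR clusters of PTBP1 were richer in pyrimidines, at 67.6% and 81.8%. A stretch of 30 bases of the replicate 1 cluster around its ATCTT match, and the whole cluster of replicate 2, which lies 320 nt downstream, read as follows.
PTBP1 3′ UTR, replicate 1, 136 reads, from chr19:811482-811515: tgaccaaatattctaATCTTttttcattta
PTBP1 3′ UTR, replicate 2, 5 reads, chr19:811836-811857: tttttTCTTccttcaaattttg
The former had T-to-C changes in 52.2% of its reads.

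The few raver clusters gave uneven base shares. T made up 44% of RAVER2 cluster bases in replicate 1 and 33.3% in replicate 2, and 23.2% of the bases of the 2 RAVER1 clusters. C and T together made up 67.3% in RAVER2 and 66.1% in RAVER1 in replicate 1, against 68.0% over all its clusters. In replicate 2 the 3 RAVER2 clusters were at 49.0%, against 68.7% over all clusters of that library. The strongest RAVER2 cluster had 134 reads, in replicate 2, and the strongest of replicate 1 had 26 reads; the intronic RAVER1 cluster, on the minus strand, had 9.
RAVER2, replicate 2, 134 reads, chr1:64795874-64795910: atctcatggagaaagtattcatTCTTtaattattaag
RAVER2, replicate 1, 26 reads, chr1:64753820-64753855: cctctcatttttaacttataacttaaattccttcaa
RAVER1, replicate 1, 9 reads, chr19:10332675-10332698: agcccctcgtggctaATCTTcctg
The RAVER2 clusters of replicate 1 lay between 2.11 and 47.1 kb from the gene's 5′ end and those of replicate 2 between 50.8 and 73.9 kb, so the libraries did not meet in this gene. Pyrimidine content was 62.5 to 75% in replicate 1 and 31.4 to 70.8% in replicate 2.

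**Figure D4:**
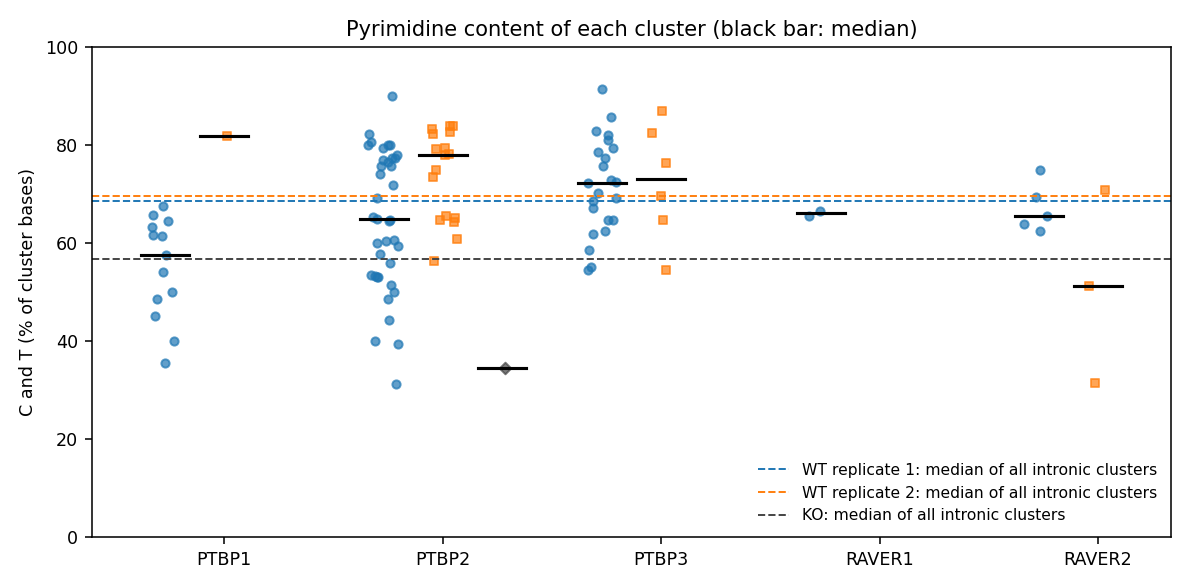
Share of C and T among the bases of each cluster (y axis, percent) by gene, 1 point per cluster, with the median of each gene and library as a black bar and the median of all intronic clusters of each library as a dashed line. PTBP3 medians lie above the WT lines, the PTBP1 median of replicate 1 below them, and the KO cluster of PTBP2 at 34.5%.

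Summed over bases, C and T made up 65.3% of the member clusters in replicate 1 and 70.4% in replicate 2, a mean of 67.9 ± 3.65% (SD, n = 2). All clusters of these libraries had 68.0% and 68.7%, above the members' value in replicate 1 and below it in replicate 2. The genes differed among themselves. PTBP3 was at 71.3% and 71.7%, a mean of 71.5 ± 0.310% (SD, n = 2), and its G content was 7.30% and 7.33%. PTBP2 was at 64.6% and 73.6%, with medians over clusters of 64.9% and 78.1%, and the clusters of its dense stretch were at 70.1% and 75.7%. Clusters under 50% pyrimidine numbered 9 of 81 in replicate 1 (11.1%, against 5.28% of all), of which 4 were in PTBP1 and 5 in PTBP2, and 1 of 27 in replicate 2 (3.70%, against 4.47% of all), in RAVER2. Clusters with at least 75% numbered 24 of 81 (29.6%, against 28.7%) and 14 of 27 (51.9%, against 31.7%). PTBP3 had the longest runs in replicate 1, with a median longest pyrimidine run of 9 bases against 6 in PTBP1 and 8 over all clusters. Every listed cluster has at least 2 converted T positions and RNase T1 cuts after G, so the method bears on T and G content in members and in all clusters alike.

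The words searched for were ATCTT, known for MATR3, and TCTT and TCTCT, known for PTB, on the strand of the RNA; every ATCTT match is also a TCTT match. TCTT was found in 31 of 81 member clusters in replicate 1 (38.3%, 95% Wilson interval 28.4 to 49.2%), below the 57.5% of all clusters of that library, and in 14 of 27 in replicate 2 (51.9%, 34.0 to 69.3%, against 59.5%). PTBP3 was at 13 of 23 and 5 of 6, PTBP2 at 12 of 38 and 7 of 17, and PTBP1 at 4 of 13 and 1 of 1. RAVER2 was at 1 of 5 and 1 of 3, and RAVER1 at 1 of 2. ATCTT was found in 14 clusters (17.3%, against 14.7%) and 2 clusters (7.41%, against 15.6%). TCTCT was found in 16 clusters (19.8%, against 22%) and 5 clusters (18.5%, against 22.1%), both intervals including the library's value. On the opposite strand the words AAGAT, AAGA and AGAGA each occurred in 1 of the 81 clusters of replicate 1, against 0.541%, 2.21% and 0.744% of all its clusters. In replicate 2 they occurred in 1, 2 and 0 of the 27, against 0.416%, 1.87% and 0.541%. Of the 5 shared PTBP2 sites, site 1 holds TCTCT and site 3 holds ATCTT. The KO cluster of PTBP2 holds none of the 3 words, at least one of which was found in 31.6% of all KO clusters.

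Of the T positions read in the member clusters, 7.12% were converted in replicate 1 (95% Wilson interval 6.85 to 7.40%) and 7.06% in replicate 2 (6.75 to 7.39%), a mean of 7.09 ± 0.0400% (SD, n = 2). All clusters gave 7.98% and 7.55%. PTBP2 had 6.61% and 6.93% and PTBP3 7.17% and 6.98%, while RAVER2 had 8.12% and 8.31% and PTBP1 8.86% in replicate 1. The KO cluster, with a conversion of 16.7% (15.0 to 18.6%), is 1 cluster with 2 converted positions, and all KO clusters together gave 9.04%. Single member clusters were converted more than it in 8 of 81 cases in replicate 1 and 2 of 27 in replicate 2, up to 34.5% and 40%. The share of all clusters above that value is not given here, so these counts are not a result about the members. Every listed cluster has conversions, so these values describe the listed clusters only. In 8 of 81 member clusters of replicate 1 (9.88%, 5.09 to 18.3%) under 50% of the reads carried a change, against 4.16% of all clusters, and 6 of these were in PTBP2. The lowest were 7.69%, 9.52% and 10.5% in PTBP2. The PTBP2 cluster richest in pyrimidines, at 90%, was among them, with 9.52% of its 21 reads changed. In replicate 2 there was 1 such cluster, in PTBP2 (3.70%, against 3.95% of all clusters). A single distinct read sequence made up 8 member clusters of replicate 1 (9.88%, against 15% of all) and 4 of replicate 2 (14.8%, against 14.0%).

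Beside the members stand 2 lists of related genes. The first holds 20 other proteins that bind pyrimidine-rich RNA or act with it in splicing. Of these, 15 had a cluster in replicate 1, 16 in replicate 2, 15 in both and 1 in KO, with medians of 10 and 4 clusters per gene. Of all 9706 genes with a WT cluster, 9189 had one in replicate 1, 6043 in replicate 2, 5526 in both and 571 in KO, with medians of 4 and 1. The 3 with the most reads by geometric mean were PCBP2, a poly(C)-binding protein, with 34 and 14 clusters, RBFOX2, a splicing regulator, with 48 and 14, and TIAL1, which binds U-rich RNA, with 26 and 7. The second list holds 20 transcripts with an exon known to be repressed by PTB. Clusters were found for 14 in replicate 1 and for the same number in replicate 2, 14 in both, and for 2 in KO, with medians of 13.5 and 3.5. PKM, the pyruvate kinase gene whose mutually exclusive exons PTB helps to select, had 35 and 12 clusters with 1757 and 1203 reads, and KTN1 (kinectin) had 29 and 15. PTBP2, with 38 clusters in replicate 1, lay inside the range of both lists there (0 to 48), and with 17 in replicate 2 above their highest values, 16 and 15. The members' medians were 13 and 3. The medians of the lists count genes without any cluster as 0, whereas the median over all genes leaves out genes with no WT cluster, so they are not built alike. The same holds for the counts of genes with a cluster.

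The genes most like PTBP2 over the 3 libraries, by the sum of absolute differences in log2(reads per 1000000 cluster reads + 1) among 9753 other genes, were RAD51B at 0.12, PITPNB at 0.24 and GPC4 at 0.53. RAD51B had 60, 20 and 1 clusters in replicate 1, replicate 2 and KO, where PTBP2 had 38, 17 and 1. With 3 libraries and 1 KO cluster in each of these genes, the likeness is a description of read sums only.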

How the data were processed

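PAR-CLIP cluster tables of 2 WT libraries and 1 KO library were used as deposited, 1 table per library. Named per the file headers, the deposited counts of reads, distinct read sequences, converted positions and T events per cluster are, from their values, whole numbers that were not normalised. The deposited fraction columns hold, for each cluster, how large a part of its reads was converted or ended in G, and the deposited caller score columns entered no result. The submitters' processing notes name cutadapt 1.8.3, Bowtie 1.1.2 and the builds hg38 and GRCh38.p5; the cluster caller and filters are not given in the sources used here. The weakest listed cluster had 5 reads and 2 converted positions, and the tables hold reads in clusters only, so sequencing depth is unknown and no limit is set for a gene without a cluster.

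Members were found by the deposited gene name. All 109 clusters lay inside the RefSeq interval (GRCh38.p14) of their gene, and no other cluster did. Gene lengths and distances to the gene's 5′ end use these intervals, with the strand of the clusters. Cluster sequences are those of the tables, in the sense of the RNA. Sharing required an overlap of at least 1 nt on the same strand. Shares carry 95% Wilson intervals, which cover counting error only, since reads have no molecular identifiers in the tables. The overlap procedure was tested on simulated data and recovered 100% of overlaps planted among 27155 intervals. Members and lists were chosen with earlier results of these data known. Named were all members, in each list the 3 genes with the highest geometric mean of WT reads, the 3 genes most like the member with the most reads, overlapping WT pairs, the strongest cluster per gene and library, clusters outside introns and KO clusters. One gene that this rule names is not reported here. The alternatives were minimum reads or converted positions, equal library size, overlap length, trimmed ends, weighting by reads, position instead of name, and leaving out a WT replicate. Python 3.11.15, numpy 2.4.6, pandas 2.3.3, scipy 1.17.1 and matplotlib 3.10.9 were used.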

Additional observations from a re-analysis of the deposited data

How the results depend on the processing

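Of 64 alternative values, 48 moved by less than the spread between the WT libraries, the counting interval or, for counts, 1.5 times. Some of these could not move further. Except for counts, a WT mean without 1 replicate always stays within the SD. The single KO cluster, with 277 reads, keeps its own values with a minimum of 10 reads, a median or weighting by reads. With 3 nt removed from each end its pyrimidine content was 43.5% instead of 34.5%, which the wide counting interval over its few bases still includes. The number 48 is therefore not a measure of robustness. The other values follow. The WT mean of 54 member clusters fell to 22 with at least 3 converted positions per cluster and to 27.5 with equal numbers of clusters per WT library, and ranged from 27 to 81 when either replicate was left out. With at least 3 converted positions KO had 0 member clusters and a read share of 0, the members with a cluster in both WT libraries went from 4 to 2, the read share rose from 1028 to 1263 per 1000000, conversion fell from 7.09% to 6.59%, the intronic share rose from 92.0% to 95.9%, and TCTCT from 19.1% to 31.9% of clusters. With at least 10 reads these were 7.03%, 93.5% and 18.2% for conversion, introns and TCTCT, and 3 members had clusters in both libraries. Conversion as the median over clusters was 8.51%. The share of WT replicate 2 clusters found in WT replicate 1 was 6.17% after moving positions and 40.7% within 100 nt, the latter chosen after seeing the data and set against 34.3% of all replicate 2 clusters. Leaving out a replicate gave 91.4 to 92.6% for introns, 65.3 to 70.4% for pyrimidines, 7.06 to 7.12% for conversion, 961 to 1094 per 1000000 for reads, and 38.3 to 51.9%, 7.41 to 17.3% and 18.5 to 19.8% for TCTT, ATCTT and TCTCT. No paired analysis was possible because the labels give the KO library no replicate number and no test was run. The few clusters per gene limit every share given here.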

Other observations

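The deposited share of reads ending in G was 0 in 95.9% of the minus-strand clusters of WT replicate 1 and 96.4% of those of WT replicate 2, although 80.5% and 95.9% of the deposited sequences on that strand end in G. On the plus strand it was 0 in 12.6% and 3%. All 31 member clusters on the minus strand, in PTBP3 and RAVER1, had a value of 0, and 28 of their sequences end in G. The column was therefore left out of the description of these genes.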
